A study of Mus musculus with 2 samples.

Results

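Ly6a, Ly6c1, Ly6c2, Ly6d, Ly6e and Ly6g5b, 6 of the 28692 genes in the count matrices, encode small proteins of the lymphocyte antigen 6 family. They were followed through liver leukocytes of mice given vehicle or antibiotics. The set was picked by name, because the level of Ly6c1 was higher in the antibiotic library and that of Ly6g5b higher in the vehicle library, so the difference between libraries in this pair is a description and was not tested. CD45+ cells sorted from the livers of female mice 6 weeks old made up 1 vehicle library and 1 antibiotic library, each sequenced as droplet 3′ single-cell RNA. The antibiotic library came from mice that drank ampicillin at 1 mg/mL, vancomycin at 0.5 mg/mL, neomycin at 0.5 mg/mL and metronidazole at 1 mg/mL for 1 week, and the vehicle library from mice kept without these drugs. How many mice entered a library was not given in the sources used here. With 1 library a group there was no replicate check, and treatment, mouse and library cannot be told apart. Every interval below is an exact 95% interval that covers counting error only.

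Most Ly6 proteins sit on the outer face of the membrane on a lipid anchor and share a compact fold held by disulphide bonds. Immunologists use several of them as antigens that separate leukocyte subsets: Ly6C on monocytes, plasmacytoid dendritic cells and memory T cells, Ly6A (Sca-1) on blood stem cells and activated lymphocytes, and Ly6D on cells committed to the B lineage. Ly6a and Ly6e are known to be induced by interferon.

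Cells were barcodes with at least 1500 unique molecular identifiers (UMIs, the counts of captured molecules) and under 10% of them from mitochondrial genes, which left 9002 vehicle and 7050 antibiotic cells, of which 93 barcodes occurred in both libraries. They were assigned to classes by UMIs of marker genes other than Ly6 genes. The B class (Cd79a without Cd3e) held 3016 vehicle and 1340 antibiotic cells, and the plasmacytoid dendritic cell (pDC) class, with Siglech, held 174 and 34. The NK class, with Ncr1 and no Cd3 chain, held 256 and 99 cells, and the NKT-like class, with Trac and Cxcr6, held 3514 and 4175. The CD8 T class, with Cd8b1 and Trac, held 334 and 157 cells, and the remaining cells with at least 2 Trac UMIs and no Cxcr6, called other T, held 510 and 537. Median depth in NKT-like cells was 4244 vehicle and 3640 antibiotic UMIs, and ribosomal protein genes took 32.7% and 39.0% of them. Levels are given as UMIs per 1000000 UMIs of the class (CPM), and a ratio is antibiotic over vehicle CPM. The summed level of 5 B-cell markers was 11737 and 12847 CPM in the B class. It was 1278 and 1101 CPM in pDC, 940 and 416 CPM in NKT-like, 799 and 531 CPM in CD8 T and 318 and 339 CPM in NK cells. In other T cells it was 751 CPM in the vehicle and 2124 CPM in the antibiotic library, where 2 antibiotic cells carried 5 or more Jchain UMIs. NK markers summed to 16309 and 11597 CPM in NK cells and to at most 791 CPM in the other classes. NKT-like markers were highest in NKT-like cells, at 5937 and 5559 CPM, but reached 4120 and 4236 CPM in other T cells. The make-up of the NKT-like class differed between libraries. Cells with Klrb1c (NK1.1) and no Cd4 numbered 1788 in the vehicle and 2982 in the antibiotic library, and those with Cd4 714 and 564. In the class Klrb1c was 316 and 591 CPM and Cd8b1 71.3 and 26.0 CPM. Vehicle pDC held 4179 CPM of neutrophil markers, with 1 cell of 5 or more S100a8 and S100a9 UMIs, and antibiotic pDC held 0 UMIs of them. Of vehicle other T UMIs, 1604 CPM were erythroid, against 5.49 CPM in antibiotic ones.

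Of the 6 genes, 5 lie on chromosome 15 and Ly6g5b lies on chromosome 17 within the major histocompatibility region. In GENCODE vM21 on GRCm38 (mm10), the chromosome 15 genes run over 349915 bases in the order Ly6d (chr15:74762056-74763620, minus strand), Ly6e (chr15:74955051-74959905, plus strand), Ly6a (chr15:74994877-74998031, minus strand), Ly6c1 (chr15:75044018-75048830, minus strand) and Ly6c2 (chr15:75108158-75111970, minus strand). Ly6c1 and Ly6c2 are near copies of each other, so reads of one can be counted for the other. Their main transcripts were identical at 97.6% of 822 aligned bases, and the longest run shared without a difference was 188 bases. The stretch after the coding sequence, where 3′ reads mostly fall, differed at 7 of 385 aligned bases. The last coding exons, at chr15:75045405-75045610 for Ly6c1 and chr15:75108546-75108751 for Ly6c2, both on the minus strand, show how little there is to separate the genes: capitals mark the 3 bases of 206 that differ.
Ly6c1 exon: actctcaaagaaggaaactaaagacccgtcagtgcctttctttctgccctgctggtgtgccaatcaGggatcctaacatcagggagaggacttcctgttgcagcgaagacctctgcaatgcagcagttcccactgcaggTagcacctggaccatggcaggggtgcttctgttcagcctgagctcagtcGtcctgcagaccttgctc
Ly6c2 exon: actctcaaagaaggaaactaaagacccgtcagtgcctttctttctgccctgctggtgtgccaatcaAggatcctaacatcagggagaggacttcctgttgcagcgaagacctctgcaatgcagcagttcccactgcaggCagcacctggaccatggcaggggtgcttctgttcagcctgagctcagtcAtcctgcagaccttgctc
Upstream of the start the copies were less alike. The RefSeq table for GRCm38.p6 held promoters for 3 of the 6 genes, and the 250 bases before the first listed start, at chr15:75048838-75049087 for Ly6c1 and chr15:75111972-75112221 for Ly6c2, were identical at 75.9% of 216 aligned bases. They are shown because the pair differed between cell classes and between libraries, with capitals for bases that were not identical or found no partner.
Ly6c1 upstream: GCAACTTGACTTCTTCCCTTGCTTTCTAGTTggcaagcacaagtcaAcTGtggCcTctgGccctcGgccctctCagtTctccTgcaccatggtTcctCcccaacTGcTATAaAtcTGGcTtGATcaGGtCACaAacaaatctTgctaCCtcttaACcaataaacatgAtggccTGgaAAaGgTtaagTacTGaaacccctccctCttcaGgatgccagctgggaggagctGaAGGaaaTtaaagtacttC
Ly6c2 upstream: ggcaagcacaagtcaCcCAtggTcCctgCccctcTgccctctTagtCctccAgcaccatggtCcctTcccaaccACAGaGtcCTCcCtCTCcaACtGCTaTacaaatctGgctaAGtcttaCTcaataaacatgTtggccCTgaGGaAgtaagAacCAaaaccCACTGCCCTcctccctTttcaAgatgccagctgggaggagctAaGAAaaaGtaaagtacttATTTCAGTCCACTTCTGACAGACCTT
The letters TTCNNNGAA (the GAS element of interferon signalling, which reads the same on both strands) had 0 matches in the listed upstream windows of Ly6c1, Ly6c2 and Ly6g5b. Over all 32851 windows of that length, 7.02% held them.

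Each of the 6 genes had its own distribution over the classes (the plot of levels by class). Ly6c1 was a gene of T cells, Ly6g5b of NKT-like cells, Ly6d of B cells and pDC, and Ly6e was found in every class. Ly6c2 was highest in pDC, and NK, NKT-like and CD8 T cells came next. Ly6a spread over pDC, NKT-like, other T and B cells and was low in NK cells.

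**Figure D1:**
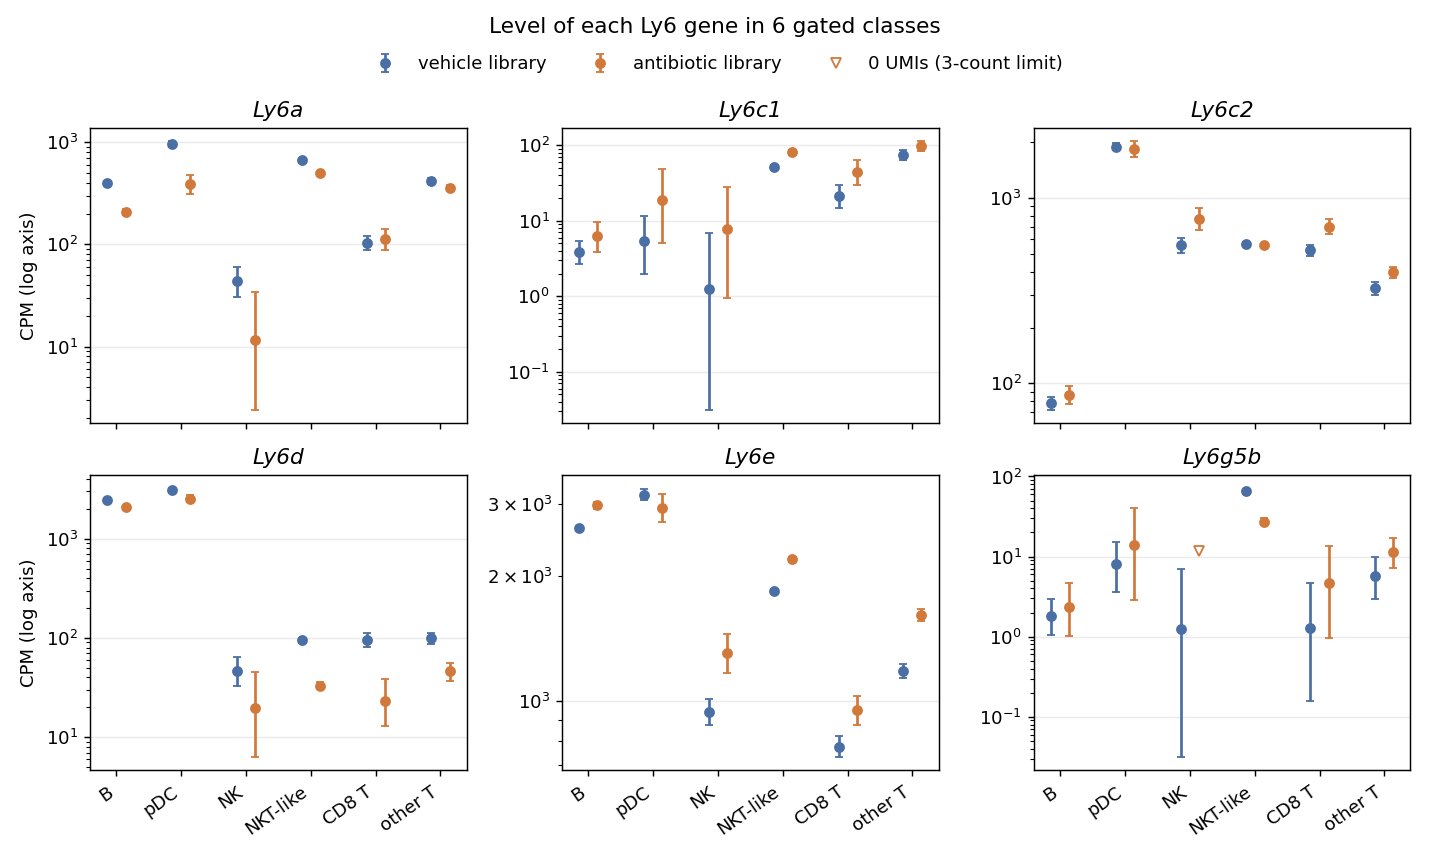
CPM of each Ly6 gene (log axis) in 6 gated classes, vehicle library in blue and antibiotic library in orange, with exact 95% counting intervals; an open triangle marks a class with 0 UMIs at its 3-count limit. Ly6g5b stands at 66.5 and 27.3 CPM in NKT-like cells and in other T cells at 5.73 and 11.5 CPM, and Ly6c1 is above 20 CPM in both libraries only in the T cell classes.

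A difference past 1.5-fold was counted for members with at least 50 UMIs in a class over both libraries, and set against all genes that met the same minimum. In NKT-like cells all 6 members met it: 1 was higher (Ly6c1), against 4.89% of 10165 genes, and 2 were lower (Ly6d and Ly6g5b), against 7.9%. Ly6c1 and Ly6g5b had been picked for this difference, so nothing is read from that count, nor from Ly6c1 in the classes that follow. In B cells 5 members met the minimum, with Ly6c1 higher (6.02% of 8636 genes were) and Ly6a lower (3.98% were). The Ly6c1 ratio in B cells was 1.60 (0.882 to 2.84) from 34 and 21 UMIs, an interval that included 1. In pDC 4 members met it, none higher (6.67% of 3390 genes were) and Ly6a lower (12.5% were). In NK cells 2 met it, Ly6c2 and Ly6e, with 0 past 1.5-fold in either direction (7.44% of 2810 genes were higher and 10.2% lower). In CD8 T cells 5 met it, with Ly6c1 higher (5.24% of 3972 genes were) and Ly6d lower (7.23% were). In other T cells 5 met it, none higher (6.16% of 6230 genes were) and Ly6d lower (6.85% were).

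**Figure D2:**
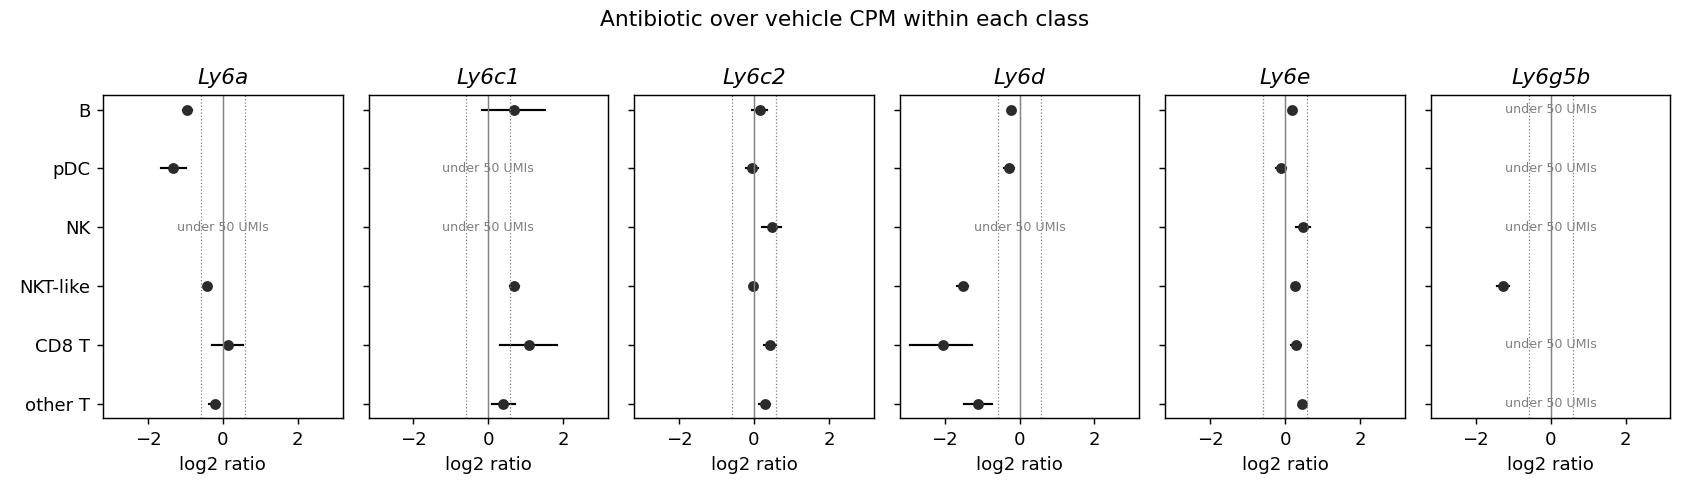
Log2 ratio of antibiotic over vehicle CPM for each Ly6 gene within each class, with exact 95% counting intervals; dotted lines mark 1.5-fold, and classes with under 50 UMIs of a gene are left blank. Ly6a lies below 0 in B cells and pDC, at -0.95 and -1.32, while Ly6e lies above 0 in B cells, at 0.18, and in all NK and T classes.

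Ly6c1 was carried mostly by T cells, and its level was higher in the antibiotic library in each T cell class. NKT-like cells held 72.4% of its 1183 UMIs in vehicle cells and 78.3% of its 1765 UMIs in antibiotic cells. Its level in NKT-like cells was 51.1 CPM in the vehicle library (857 UMIs) and 82.7 CPM in the antibiotic library (1382 UMIs), a ratio of 1.62 (1.48 to 1.76). In other T cells it was 74.5 and 98.3 CPM, a ratio of 1.32 (1.06 to 1.64). In CD8 T cells it was 21.2 and 44.8 CPM, a ratio of 2.11 (1.24 to 3.58) from 33 and 29 UMIs. The CD8 T value rested on the loose gate, since with at least 2 UMIs of both markers only 10 and 3 UMIs were left and the ratio was 0.924. In the other gated classes few Ly6c1 UMIs were found. B cells had 3.89 and 6.22 CPM, pDC had 6 and 4 UMIs, and NK cells had 1 and 2 UMIs. Ungated cells with at least 3 Lyz2 UMIs, a monocyte or macrophage gate of 104 and 22 cells that can share cells with the neutrophil gate, held 0 UMIs of Ly6c1. The 3 counts that 0 allows there correspond to 6.32 CPM in the vehicle and 23.5 CPM in the antibiotic cells. Vehicle levels were ordered other T, NKT-like and CD8 T with no overlap of intervals; in antibiotic cells the intervals of other T and NKT-like cells met, as did those of CD8 T cells and pDC.

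The higher Ly6c1 level in NKT-like cells came with more cells that had any UMI of it. With every cell thinned to 1500 UMIs, 6.37% of vehicle and 9.75% of antibiotic NKT-like cells had a Ly6c1 UMI (14.5% and 19.9% unthinned). In B cells, which should lack it, the thinned shares were 0.332% and 1.04%, at median depths of 2527 and 2148.5 UMIs. The ratio was 1.49 (1.22 to 1.82) in NKT-like cells with Cd4 and 1.51 (1.35 to 1.69) in those with Klrb1c (NK1.1) and no Cd4. Ungated cells with Trdc and no Trac, a gamma-delta T cell gate of 243 and 166 cells, had 16.3 and 46.1 CPM. In the 312 vehicle and 540 antibiotic NKT-like cells with Trav11, the variable segment of the invariant NKT receptor, Ly6c1 stood at 47.9 and 81.8 CPM. Barcodes of 10 to 100 UMIs, which hold mostly free RNA, differed in the same direction, at 37.6 and 76.9 CPM, and with free RNA subtracted the NKT-like ratio was 1.53.

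Ly6g5b, a little studied member, was a gene of NKT-like and gamma-delta T cells in these livers, and its level was lower in the antibiotic library in both. NKT-like cells held 90.2% of its 1236 vehicle UMIs and 88.1% of its 519 antibiotic UMIs, while they held 47.1% and 65.5% of all UMIs. In NKT-like cells it was 66.5 CPM in the vehicle library (1115 UMIs) and 27.3 CPM in the antibiotic library (457 UMIs), a ratio of 0.411 (0.368 to 0.459). Other T cells had 5.73 and 11.5 CPM from 12 and 23 UMIs, so the vehicle level in NKT-like cells was 11.6-fold that of other T cells (6.62 to 22.5) and the antibiotic level 2.38-fold (1.57 to 3.795). CD8 T cells had 2 and 3 UMIs, B cells 16 and 8, and NK cells 1 and 0, where 3 counts would be 11.7 CPM. Below NKT-like cells the vehicle order was not resolved, since neighbouring intervals overlapped, and in antibiotic cells those of NKT-like cells and pDC (3 UMIs) overlapped as well.

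The lower Ly6g5b level was found in every subset of NKT-like cells that was split off. It was 62.0 and 25.8 CPM with Cd4, 73.3 and 29.2 CPM with Klrb1c and no Cd4, and 74.9 and 31.7 CPM with Trav11. The ratios were 0.416 (0.312 to 0.548), 0.398 (0.348 to 0.455) and 0.424 (0.310 to 0.576). In the gamma-delta gate it was 45.8 and 14.04 CPM from 42 and 7 UMIs, a ratio of 0.307 (0.116 to 0.689). With cells thinned to 1500 UMIs, 9.56% of vehicle and 3.74% of antibiotic NKT-like cells had a Ly6g5b UMI (24.4% and 9.87% unthinned), against 0.199% and 0.448% of B cells. Cells with 2 or more UMIs made up 22.4% of unthinned vehicle NKT-like cells with the gene and 9.71% of antibiotic ones.

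**Figure D3:**
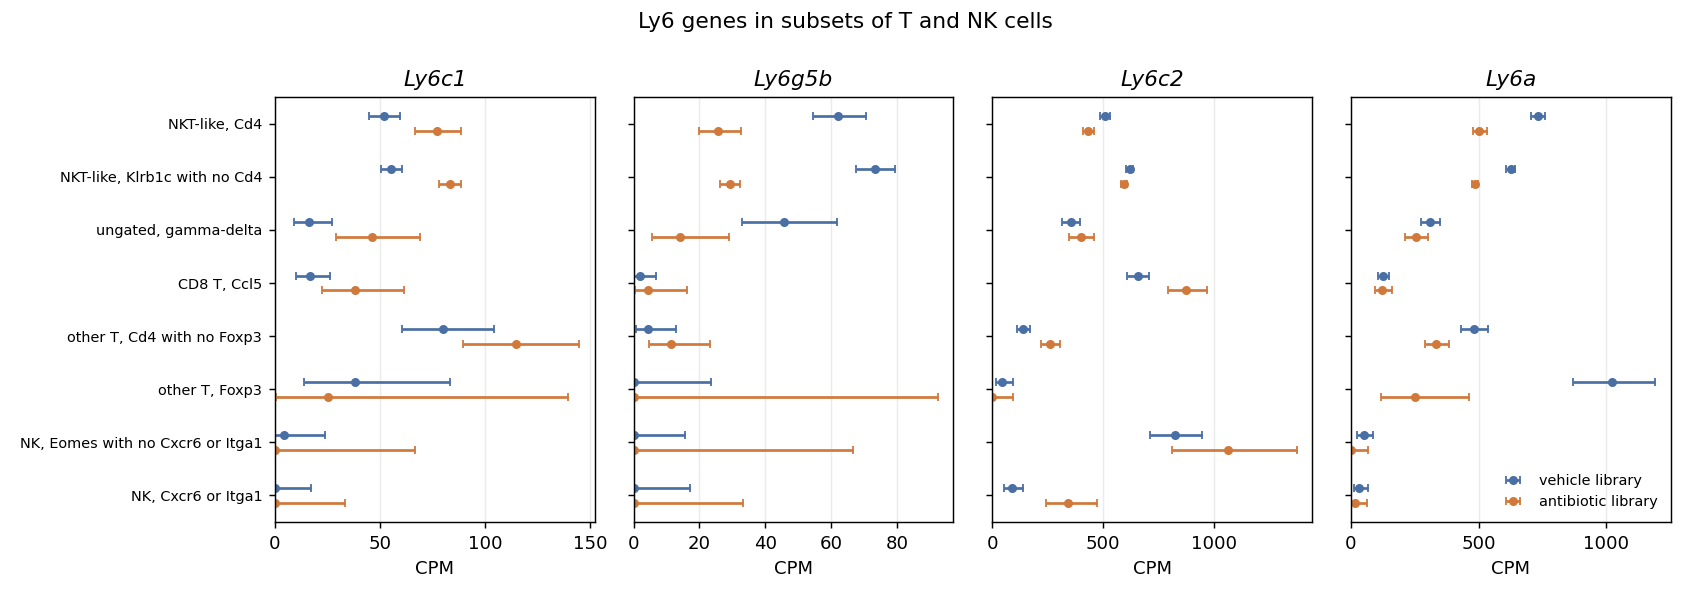
CPM of Ly6c1, Ly6g5b, Ly6c2 and Ly6a in subsets of T and NK cells, vehicle library in blue and antibiotic library in orange, with exact 95% counting intervals. Ly6g5b intervals of the libraries are apart in the NKT-like and gamma-delta subsets, and Ly6c2 is high in Eomes NK and Ccl5 CD8 T cells in both libraries.

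Ly6g5b (chr17:35113948-35115428, minus strand) lies 767 bases from the end of Csnk2b (chr17:35116196-35122053, minus strand), the regulatory subunit of casein kinase, whose transcription runs towards it. One of its listed RefSeq starts lies inside Csnk2b, so the counts of the pair may not be fully separate. Csnk2b itself was near level in NKT-like cells, at 199 and 181 CPM, a ratio of 0.910 (0.866 to 0.956). There were 2.99 Csnk2b UMIs for each Ly6g5b UMI in vehicle and 6.61 in antibiotic NKT-like cells, compared with 63.3 and 43.4 in B cells. Other genes nearby were Gpank1 at a ratio of 1.03 (0.923 to 1.15), Abhd16a at 1.04 (0.951 to 1.15) and Bag6 at 1.15 (1.03 to 1.28). Ly6g5c, a family member on its other side, had 0 UMIs in either library. Of 10 nuclear or retained RNAs listed for comparison, 7 had 50 UMIs in NKT-like cells, of which 5 were higher and 2 lower in antibiotic cells, with a median log2 ratio of 0.26 beside -0.015 over all genes tested, while their summed level was lower, at 29648 and 20793 CPM.

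Although Ly6c1 and Ly6g5b differed between libraries in opposite directions, Ly6c1 was also detected in NKT-like cells with Ly6g5b. Among thinned vehicle cells, Ly6c1 was detected in 7.74% (5.12 to 11.1) of 336 cells with Ly6g5b and in 6.23% (5.41 to 7.13) of 3178 cells without. Among antibiotic cells the shares were 10.3% (5.98 to 16.1) of 156 cells and 9.73% (8.83 to 10.7) of 4019 cells. The intervals overlapped in both libraries.

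Ly6c2, which encodes the monocyte form of Ly6C, had another distribution than its near copy. Its level was 1891 and 1834 CPM in pDC, 566 and 554 CPM in NKT-like cells, 557 and 772 CPM in NK cells, 521 and 699 CPM in CD8 T cells, 325 and 397 CPM in other T cells and 77.9 and 86.5 CPM in B cells. In NKT-like cells as a whole, where Ly6c1 differed, the Ly6c2 ratio was 0.980 (0.952 to 1.01). It was 0.850 (0.790 to 0.916) in those with Cd4 and 0.961 (0.927 to 0.997) in those with Klrb1c and no Cd4. With Trav11 it was 0.815 (0.748 to 0.887), and without Trav11 1.00 (0.971 to 1.03). Ly6c2 was higher in antibiotic NK cells, with a ratio of 1.39 (1.17 to 1.64), CD8 T cells, 1.34 (1.19 to 1.51), and other T cells, 1.22 (1.10 to 1.36). In NK cells that ratio was 0.993 among cells of at least 3000 UMIs, from 167 and 20 UMIs. The monocyte or macrophage gate held 624 CPM in the vehicle and 344 CPM in the antibiotic library, a ratio of 0.552 (0.393 to 0.760), from 104 and 22 cells. The 13 vehicle cells of the neutrophil gate held 883 CPM.

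The mix of the Ly6C genes differed between classes. UMIs are not scaled by transcript length, and these transcripts are of nearly equal length, at 844 and 822 bases. There were 354 Ly6c2 UMIs for each Ly6c1 UMI in vehicle and 98.2 in antibiotic pDC, 24.5 and 15.6 in CD8 T cells, 11.1 and 6.71 in NKT-like cells, and 4.36 and 4.04 in other T cells. NK cells held 446 Ly6c2 UMIs and 1 Ly6c1 UMI in the vehicle library, and 198 and 2 in the antibiotic library. The monocyte or macrophage gate held 296 and 44 Ly6c2 UMIs beside 0 of Ly6c1. In thinned vehicle NKT-like cells Ly6c2 was detected in 40.2% (33.7 to 46.9) of cells with Ly6c1 and in 30.5% (28.9 to 32.1) of cells without, and in antibiotic cells in 37.1% (32.4 to 42.0) and 33.0% (31.5 to 34.5). In vehicle other T cells the order was the other way, at 6.67% (1.40 to 18.3) of 45 cells and 18.3% (14.9 to 22.1) of 465 cells, with intervals that overlapped.

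Within NK cells Ly6c2 differed between circulating and liver-resident subsets. NK cells with Eomes, the factor of circulating NK cells, and neither Cxcr6 nor Itga1 held 823 and 1064 CPM, and NK cells with Cxcr6 or Itga1, markers of liver-resident cells, held 88.3 and 343 CPM. The fold between these subsets was 9.32 (5.81 to 15.8) in the vehicle and 3.10 (2.03 to 4.79) in the antibiotic library. CD8 T cells with Ccl5, a chemokine of memory cells, held 656 and 876 CPM, a ratio of 1.33 (1.18 to 1.51). Other T cells with Cd4 and no Foxp3 held 140 and 261 CPM, a ratio of 1.86 (1.44 to 2.43). Of 12 effector and memory genes listed for comparison, 7 of the 11 with 50 UMIs in CD8 T cells were higher and 4 lower in antibiotic cells, with a median log2 ratio of 0.38 beside -0.0046 over all genes. In NKT-like cells 1 of 12 was higher and 11 lower, with a median of -0.20 beside -0.015 over all genes. Of the 12, 4 were past 1.5-fold lower, against 7.9% of 10165 genes.

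Ly6a, which encodes Sca-1, was lower in the antibiotic library in B cells and pDC and to a lesser degree in NKT-like cells. In B cells it was 401 CPM (3507 UMIs) and 207 CPM (699 UMIs), a ratio of 0.516 (0.475 to 0.560). In pDC it was 966 and 387 CPM, a ratio of 0.401 (0.317 to 0.501), and 0.397 without the vehicle cell that carried S100a8 and S100a9. In NKT-like cells it was 665 and 498 CPM, a ratio of 0.748 (0.727 to 0.770). Other T cells had a ratio of 0.860 (0.778 to 0.950), from 415 and 357 CPM. CD8 T cells were at 103 and 113 CPM, where the interval of the ratio included 1. NK cells had 35 and 3 UMIs. The order in vehicle cells was pDC, NKT-like, other T, B, CD8 T and NK, with the intervals of other T and B overlapping; in antibiotic cells NKT-like cells came first, and pDC and other T overlapped. Thinned B cells with a Ly6a UMI made up 32.2% (30.5 to 33.9) of the vehicle and 21.3% (19.2 to 23.6) of the antibiotic class (45.7% and 30.8% unthinned). The ratio was alike in B cells with Fcer2a, the follicular type, at 0.508 (0.448 to 0.574), and in those with Vpreb3 and no Fcer2a, at 0.559 (0.475 to 0.656). Among other T cells, those with Foxp3, the regulatory T cell factor, held 1021 CPM in 25 vehicle cells and 251 CPM in 10 antibiotic cells (160 and 10 UMIs), with a ratio of 0.246 (0.116 to 0.464).

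Ly6e, which is also known to be induced by interferon, did not share that difference. Its level in B cells was 2615 and 2971 CPM, a ratio of 1.14 (1.11 to 1.16), which was 0.994 among cells of at least 3000 UMIs. In NKT-like cells it was 1842 and 2198 CPM, a ratio of 1.19 (1.18 to 1.21), in other T cells 1181 and 1615 CPM, 1.37 (1.30 to 1.44), and in NK cells 941 and 1306 CPM, 1.39 (1.22 to 1.58). CD8 T cells had 775 and 948 CPM, a ratio of 1.22 (1.11 to 1.35), and pDC 3157 and 2930 CPM, 0.928 (0.851 to 1.01). It was found in 97.3% of vehicle and 97.6% of antibiotic thinned B cells. NK cells were uneven: those with Cxcr6 or Itga1 held 1660 and 1717 CPM, and those with Eomes and neither of these held 433 and 902 CPM.

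Ly6a and Ly6e were then set beside other interferon genes. Of 20 interferon response genes that include neither, all 20 were lower in antibiotic NKT-like cells. Past 1.5-fold lower were 19 of them, against 7.9% of 10165 genes. Their median log2 ratio was -1.12 beside -0.015 over all genes tested. In B cells 16 of 18 with 50 UMIs were lower, with a median of -0.72 beside 0.068, and in other T cells 18 of 18, with a median of -0.68 beside -0.014. The median was -0.86 over 10 genes in pDC, -0.72 over 7 in NK and -0.65 over 15 in CD8 T cells. Ifi27l2a, among the best expressed of them, stood at 950 and 256 CPM in NKT-like cells.

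Cells with 3 or more UMIs of that list had more Ly6a than cells with fewer in both libraries. A smaller share of antibiotic cells was of that kind. Among cells thinned to 1500 UMIs, those with 3 or more UMIs of the list made up 59.7% of vehicle and 25.6% of antibiotic NKT-like cells, and 30.2% and 13.96% of B cells. In NKT-like cells with 0 UMIs of the list Ly6a was 403 CPM (343 to 471) in the vehicle and 392 CPM (361 to 426) in the antibiotic library. With 1 to 2 UMIs it was 469 (437 to 502) and 437 CPM (415 to 461), and with 3 or more it was 785 (754 to 816) and 696 CPM (656 to 738). The NKT-like libraries thus overlapped in cells with 0 and with 1 to 2 UMIs of the list and were apart with 3 or more. B cells did not overlap at any of these steps: Ly6a was 284 (253 to 317) and 180 CPM (152 to 213) with 0 UMIs, 316 (292 to 341) and 182 CPM (156 to 211) with 1 to 2, and 497 (460 to 536) and 271 CPM (213 to 339) with 3 or more. In other T cells the intervals of the libraries overlapped at each step. Ly6e in NKT-like cells was higher in the antibiotic library at each step, at 1736 and 2145 CPM with 0 UMIs and at 1950 and 2306 CPM with 3 or more. This split, like that by Trav11, was chosen after the values were seen. The step of 3 or more UMIs has no upper limit. Whether interferon accounts for the Ly6a difference between libraries was not tested.

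**Figure D4:**
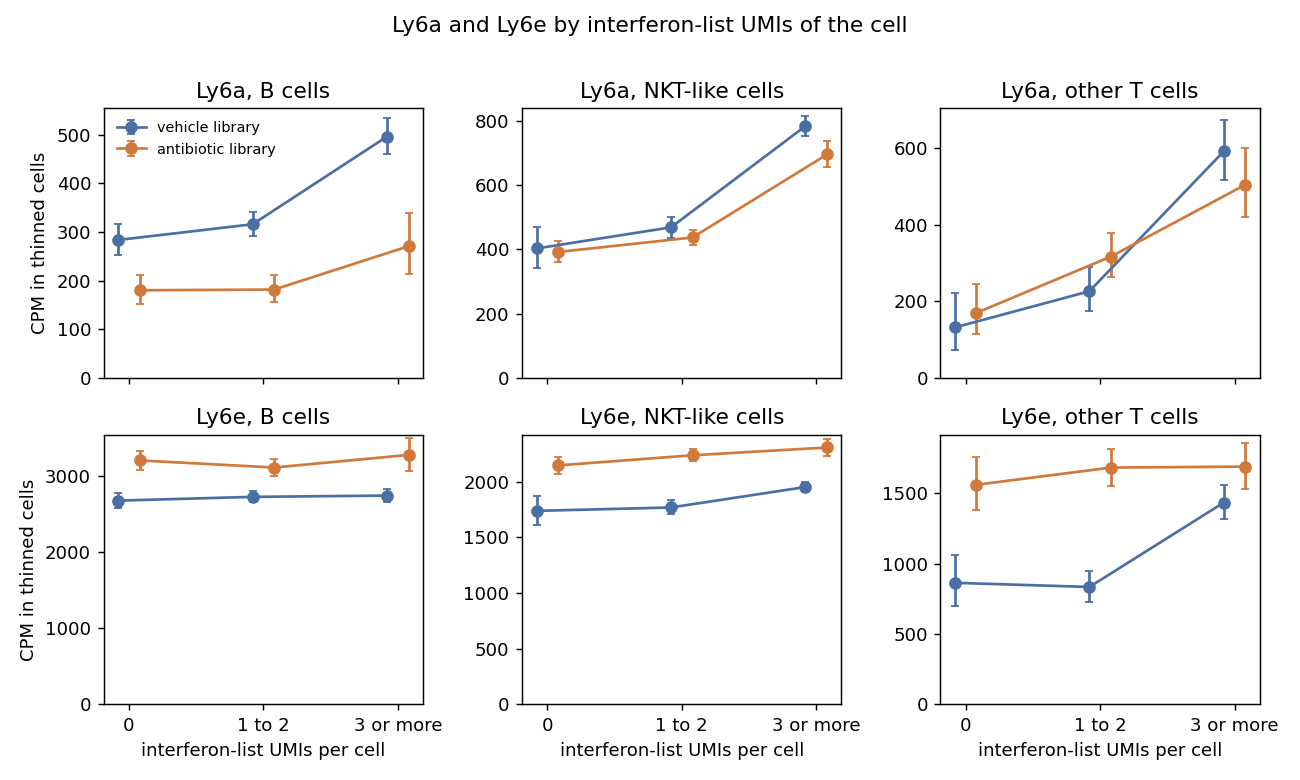
CPM of Ly6a (upper row) and Ly6e (lower row) in cells thinned to 1500 UMIs, split by UMIs of 20 interferon response genes in the cell, for the vehicle (blue) and antibiotic (orange) libraries, with exact 95% counting intervals. Ly6a intervals of the NKT-like libraries overlap with 0 and with 1 to 2 UMIs and are apart with 3 or more, and in B cells they are apart throughout, at 284 and 180 CPM with 0 UMIs of the list.

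Ly6d was a gene of B cells and pDC. Its level was 2429 and 2068 CPM in B cells, a ratio of 0.851 (0.829 to 0.875), and 3084 and 2529 CPM in pDC, 0.820 (0.748 to 0.898). Thinned B cells with a Ly6d UMI were 89.0% and 85.1%. B cells with Vpreb3 and no Fcer2a, the less mature type, held 3353 and 2603 CPM, and those with Fcer2a held 2301 and 1913 CPM, a fold of 1.46 (1.41 to 1.503) and 1.36 (1.29 to 1.43) between the types. All other classes had under 100 CPM: 94.4 and 33.0 in NKT-like, 98.9 and 45.9 in other T, 95.2 and 23.2 in CD8 T and 46.2 and 19.5 in NK cells. The ratios of 0.350 (0.317 to 0.386) in NKT-like and 0.243 (0.133 to 0.414) in CD8 T cells lay below that of barcodes of 10 to 100 UMIs. Those barcodes held 761 and 369 CPM, a ratio of 0.485 (0.454 to 0.518). The ratios of 0.464 (0.359 to 0.596) in other T and 0.422 (0.130 to 1.08) in NK cells had intervals that included 0.485.

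Ly6d counts in T and NK cells were set beside those of B-cell genes. Cd79b, a chain of the B-cell receptor, gave 1.15 UMIs per Ly6d UMI in vehicle and 1.36 in antibiotic NKT-like cells, 1.08 and 1.18 in B cells, and 1.13 and 1.35 in barcodes of 10 to 100 UMIs, and 0.0332 and 0.0387 in pDC, which express Ly6d on their own. In other T cells the values were 1.15 and 1.49, in NK cells 1.14 and 1.80, and in CD8 T cells 1.47 and 2.47, the last from 15 Ly6d UMIs. Ighm did not keep the ratio, with 6.91 and 8.87 UMIs per Ly6d UMI in NKT-like cells and 1.63 and 2.56 in B cells. With free RNA subtracted at the level that Igkc allowed, 0 CPM of Ly6d were left in NKT-like cells of either library. That step took all Igkc in NKT-like cells as free RNA, a fraction of 19.2% in the vehicle and 9.16% in the antibiotic library. Values below 0 were set to 0, so the step cannot show how much Ly6d is free RNA. What was left in other classes was 11.8 and 3.19 CPM in CD8 T, 1.19 and 2.11 CPM in NK and 18.7 CPM in vehicle other T cells. With doublets left out the NKT-like ratio was 0.423. What share free RNA or doublets had in the Ly6d counts of T and NK cells was not tested further. In thinned cells 8.14% and 3.21% of NKT-like cells had a Ly6d UMI (18.0% and 7.02% unthinned).

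The rest of the family was sparse. Of 36 further Ly6 and uPAR family genes listed, 32 were in the files, 12 had 0 UMIs in either library and 9 reached 20 UMIs over all cells. Lynx1, known as a modulator of nicotinic receptors in neurons, was mostly in B cells (245 and 81 of 349 and 106 UMIs), at 28.0 and 24.0 CPM, and stood at 41.8 and 32.7 CPM in pDC. Plaur, the urokinase receptor, was found in pDC at 125 and 224 CPM and in B cells at 31.7 and 40.3 CPM. Ly6k had 113 of its 316 vehicle UMIs in pDC, at 101 CPM, and 2 antibiotic UMIs there. Lypd6b had 73 of 119 and 70 of 97 UMIs in NKT-like cells, at 4.35 and 4.19 CPM, Cd59a had 46 and 6 UMIs in all and 2010109I03Rik 48 and 44. Gpihbp1, the lipase transporter of capillary walls, had 226 and 11 UMIs in an endothelial gate of 26 and 2 cells. Ly6g, the neutrophil antigen, had 104 of its 113 vehicle UMIs in the 13 cells of the neutrophil gate and 0 UMIs in the antibiotic library, where that gate held 2 cells. Ly6i had 76 of 140 vehicle UMIs in the monocyte or macrophage gate.

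The genes most like each member in level were found by Pearson's r of log2(CPM + 10) over the 12 class sums (6 classes in each of 2 libraries), among 10141 genes with at least 100 UMIs. These r values describe class sums of 2 libraries, which share depth and library, and carry no test. For Ly6c1 they were Izumo1r (folate receptor 4 of T cells, r 0.967), A630023P12Rik (0.962) and Trac (0.936). For Ly6g5b they were Il4 (the cytokine, 0.905), Dopey2 (0.891) and Dnmt3b (a DNA methyltransferase, 0.891). For Ly6c2 they were Fyn (a Src-family kinase, 0.959), Iqgap2 (0.944) and Chmp4b (0.944). For Ly6d they were Blnk (the B-cell linker, 0.993), Iglc3 (0.993) and Fcrla (0.990), for Ly6a Phb2 (0.904) and Rftn1 (0.89997), and for Ly6e Gdi2 (0.933), Cmtm7 (0.925) and Gpr155 (0.918).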

How the data were processed

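Per the labels and the study's methods, CD45+ liver leukocytes were captured with the droplet 3′ chemistry, and the authors processed reads with bcl2fastq and Cell Ranger on mm10; no version was given in the sources read. Matrices as deposited by the authors hold UMI counts of 28692 genes for 737280 barcodes, 41474311 UMIs in the vehicle and 29811401 in the antibiotic library; 0 columns of other samples were present. Cells of at least 1500 UMIs and under 10% mitochondrial UMIs were gated by marker UMIs, and counts were summed per class. Members and lists were chosen with earlier results of these data known; named are the 6 members, up to 3 most like genes each (1 of them is not reported here), the neighbours and the family genes with 20 or more UMIs. Intervals were exact: Poisson for CPM, conditional binomial for ratios, Clopper-Pearson for shares. Since each group was 1 library, no count model was fitted; edgeR 4.0.16 (R 4.3.3) gave TMM factors for an alternative scaling only. Cells were thinned to 1500 UMIs (seed 1), which left out none. Doublets were kept and left out as an alternative: Scrublet in scanpy 1.11.5 called 4.49% of vehicle and 1.84% of antibiotic cells. Free RNA was read from barcodes of 10 to 100 UMIs. Sums and intervals used scipy 1.17.1, Biopython 1.88 and pandas 2.3.3 under Python 3.11.15; 98.8% of gene identifiers were in GENCODE vM21. The ratio interval was tested on simulated Poisson counts only. These follow the model of the interval and leave out how UMIs cluster by cell, so the test cannot show how well it covers the real sums.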

Additional observations from a re-analysis of the deposited data

Results flagged for a closer look

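Values were searched in the ungated monocyte or macrophage, endothelial, gamma-delta and neutrophil gates and in barcodes of 10 to 100 UMIs. They were singled out where they were higher in the antibiotic library and the interval of the ratio excluded 1. In the ungated gates at least 50 UMIs over both libraries and more than 3 antibiotic UMIs were also required. Ly6c1 in the gamma-delta gate, with a ratio of 2.82 (1.41 to 5.82) from 15 and 23 UMIs, did not reach that minimum. In barcodes of 10 to 100 UMIs, Ly6c1 was 37.6 CPM in the vehicle and 76.9 CPM in the antibiotic library, a ratio of 2.05 (1.67 to 2.51). Ly6c2 in the same barcodes was 532 and 573 CPM, a ratio of 1.08 (1.01 to 1.15), and Ly6e was 2065 and 2279 CPM, a ratio of 1.10 (1.07 to 1.14). In ungated cells with Trdc and no Trac, Ly6e was 1508 and 1984 CPM, a ratio of 1.32 (1.21 to 1.43). In the ungated endothelial gate Ly6a was 558 CPM in 26 vehicle cells and 1671 CPM in 2 antibiotic cells, from 47 and 8 UMIs. Others were lower with such intervals. In the low barcodes Ly6a had a ratio of 0.901 (0.846 to 0.958) and Ly6d 0.485 (0.454 to 0.518). In the monocyte or macrophage gate Ly6e was 1914 and 1480 CPM, a ratio of 0.773 (0.657 to 0.905). The Ly6g5b ratio in the low barcodes was 0.879 (0.637 to 1.21), an interval that included 1.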

How the results depend on the processing

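Ratios were recomputed under 14 alternatives, 3 of them chosen after seeing the data (pDC without cells of 5 or more S100a8 and S100a9 UMIs, other T without cells of 5 or more Jchain UMIs, and barcodes found in both libraries left out). Not every alternative applied to every ratio: Ly6a had 11 in NKT-like cells, 12 in pDC and 8 in NK cells. Unthinned cells served only for the shares of NKT-like cells with a UMI. Of 387 values, 350 stayed within the interval of the main value and 34 moved beyond it. The other 3 changed direction from a value whose interval had excluded 1. Among values whose interval had included 1, 11 changed sign and are counted by how far they moved. Log2 ratios are given. With at least 3000 UMIs, Ly6e in B cells was -0.0091 and Ly6c2 in NK cells -0.010, and with stricter gates Ly6c1 in CD8 T cells was -0.11, from 10 and 3 UMIs; fewer cells were left in each case. In NKT-like cells, scaling without ribosomal, mitochondrial and Malat1 counts gave Ly6a -0.28, Ly6c1 0.83, Ly6c2 0.11 and Ly6e 0.39. With free RNA subtracted, NKT-like values were Ly6a -0.47, Ly6e 0.29 and Ly6g5b -1.45, and Ly6c1 in pDC was 4.42, from 6 and 4 UMIs. With doublets left out they were Ly6a -0.47, Ly6c2 -0.077 and Ly6d -1.24. Stricter gates gave Ly6e 0.23 and TMM scaling 0.29, and thinning gave Ly6g5b -1.48 and Ly6c1 in B cells 1.66. The cause of these shifts was not tested. Over the alternatives Ly6c1 in NKT-like cells ranged from 0.62 to 0.83 and Ly6g5b from -1.48 to -1.14. Free RNA could not be subtracted in antibiotic other T cells, where Igkc allowed a fraction of 100%. No paired analysis was possible because each group was 1 library and no test was run. Levels of a few UMIs (Ly6g5b in NK and CD8 T cells, Ly6c1 in pDC and NK cells) were below what this depth resolves.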

Other observations

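Ly6g5b in thinned vehicle NKT-like cells was 53.2 CPM (33.0 to 81.4) in cells with 0 UMIs of the interferon response list, 61.3 (50.2 to 74.1) with 1 to 2 and 76.9 (67.5 to 87.2) with 3 or more. Antibiotic cells held 24.2 (16.9 to 33.7), 24.3 (19.2 to 30.3) and 27.4 CPM (19.9 to 36.8), so the libraries were apart at the steps of 1 to 2 and of 3 or more UMIs and overlapped by little at 0. Ly6c1 was higher in antibiotic NKT-like cells at each step, at 45.6, 48.0 and 53.1 CPM in the vehicle and 77.5, 80.9 and 90.4 CPM in the antibiotic library.

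Thinned NKT-like cells with a Ly6a UMI had Ly6c1 more often than cells without, at 8.27% (7.04 to 9.63) and 4.35% (3.43 to 5.43) in the vehicle and 11.3% (9.94 to 12.8) and 8.37% (7.25 to 9.60) in the antibiotic library. Ly6g5b was found in 10.2% (8.84 to 11.7) of vehicle cells with Ly6a and in 8.88% (7.57 to 10.3) of cells without. In vehicle NKT-like cells, 45.2% had a Ly6c2 UMI without thinning and such cells held 5.97 on average and up to 63, compared with 4.68 on average and up to 37 in the antibiotic library.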
